A study of Homo sapiens with 6 samples.

Results

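The genes followed here are 10 enzymes and binders of methylated lysine 36 of histone H3 (H3K36), chosen by name from the 35639 genes of the deposited table. All 10 were found, and all 10 were among the 16436 genes that passed the filter on low values. They comprise 5 writers (SETD2, NSD1, NSD2, NSD3 and ASH1L), 4 erasers (KDM2A, KDM4A, KDM4B and KDM4C) and 1 reader, ZMYND11. The samples are bulk RNA-seq libraries of hFOB 1.19, an immortalised human fetal osteoblastic line, transduced with a lentiviral vector that carries dTomato. All libraries came from cells grown at 34 °C, the temperature at which the line proliferates and is undifferentiated. The groups were HA-tagged histone H3.3 with the G34W change (G34W below), its HA-tagged wild-type form (WT below) and the empty vector (EV), with 2 libraries each, collected 15 days after transduction. Both histone constructs encode the Drosophila His3.3A protein in addition to the endogenous human H3.3 genes, and transduced cells were sorted in bulk for dTomato, so a line is not 1 clone. Groups follow the sample titles. In the genotype entries these libraries are swapped, G34W for WT and WT for G34W, so every direction between them would reverse if those entries are right.

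Values are estimated counts per gene that the authors normalised between libraries, called normalised estimated counts here. Their sums lay between 38821143 and 48024590 in EV replicate 2 and the WT and G34W libraries. The values are neither whole reads nor corrected for gene length, so no depth or counting interval was derived from them. EV replicate 1 was left out of the comparisons. Its values summed to 157595150, and 62.3% of the genes tested were listed at 0 in it, among them SETD2, NSD1, NSD3, ASH1L, KDM4A and KDM4C. The EV group is therefore represented by 1 library.

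A further library stood apart. G34W replicate 1 held RNA of genes that mark pluripotent stem cells: the 9 markers found of a list of 10 summed to 51675 normalised estimated counts there, against 306 in G34W replicate 2, 331 and 366 in WT, and 391 in EV replicate 2. All 9 were more than 2-fold higher in that library than in each of the other 4, and the most abundant, POU5F1, had 19441 against at most 75.4. A list of 6 myeloid markers summed to 1044 in the same library and to between 1159 and 1432 in the others, most of it CD68 (850.4 in G34W replicate 1). CSF1R had between 39.7 and 143 and CD14 between 27.7 and 77.8, the highest CD14 value being in G34W replicate 1, and PTPRC, LYZ and AIF1 were at most 25.4, 17.3 and 1.83. A list of 9 osteoblastic markers summed to between 191688 and 261508, with COL1A2 the most abundant and nearly all of the sum from the matrix genes COL1A1, COL1A2 and SPARC. RUNX2, the osteoblast lineage factor, had between 236 and 573, but SP7 and IBSP, markers of more mature osteoblasts, were at most 6.03 and 2.50, and IBSP was listed at 0 in 4 of the 5 libraries. SPP1, which encodes osteopontin, had between 171 and 649, the highest in G34W replicate 1. BGLAP, which encodes osteocalcin, had 4.08 and 27.4 in G34W, 44.9 and 39.3 in WT and 5.55 in EV replicate 2. ALPL, the alkaline phosphatase of early osteoblasts that pluripotent stem cells also express, had 1216 in G34W replicate 1, 107 in G34W replicate 2, 245 and 236 in WT and 428 in EV replicate 2. The members are therefore given with their values in the single libraries. In bulk RNA, fewer cells of a type and less RNA per cell cannot be told apart.

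H3K36 is methylated in steps. The NSD enzymes and ASH1L add the first and second methyl groups, and SETD2, which travels with elongating RNA polymerase II, adds the last one over the bodies of transcribed genes. KDM2A removes the lower methylation states, and KDM4A, KDM4B and KDM4C remove the higher ones and also act on lysine 9 of histone H3. ZMYND11 binds trimethylated K36 on the H3.3 variant and restrains transcript elongation. The G34W change of giant cell tumour of bone lies beside this lysine, which is shown here by the GENCODE coding sequence of human H3-3A for residues 28 to 40, counted without the first methionine. The codons of residues 34 and 36 are in capitals, on GRCh37 at chr1:226252137-226252175, plus strand, in exon 2 of the reference transcript.
H3-3A codons: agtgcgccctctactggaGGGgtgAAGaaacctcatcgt
The codon of residue 34 is GGG and that of residue 36 is AAG. Since the constructs carry a Drosophila cDNA, human H3-3A does not measure them. H3-3A stood at 11161 and 5570.4 normalised estimated counts in the G34W libraries, against WT values of 3793 and 4195 and an EV value of 4237. Its log2 difference between G34W and WT was 0.98 (SE 0.33, unadjusted p = 0.0154 and adjusted p = 1.0 from limma). H3-3B, the other human H3.3 gene, had G34W values of 22030 and 26483, WT values of 25288 and 26980, and an EV value of 23982. For H3-3B the log2 difference between G34W and WT was -0.11 (SE 0.26).

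All 10 members were expressed in each of the 5 libraries compared, with no value under 939.9. Levels of different genes were compared per kilobase of the reference transcript, as the mean and SD over these 5 libraries. NSD2, a dimethyltransferase, was the most abundant, with 1506 ± 285 (SD, n = 5) normalised estimated counts per kilobase. KDM4A followed with 852.6 ± 32.5, KDM2A with 632 ± 134 and ZMYND11 with 580.2 ± 58.6. The ranges of NSD2 and KDM4A did not overlap, nor did those of KDM4A and KDM2A, whereas KDM2A and ZMYND11 overlapped. NSD1 (429 ± 46.1) and KDM4B (374 ± 90.6) came next, with overlapping ranges, and NSD1 did not overlap ZMYND11. The lowest levels per kilobase were those of KDM4C (253 ± 34.6), NSD3 (252 ± 58.3), SETD2 (173 ± 31.9) and ASH1L (157.9 ± 91.3), each of which overlapped its neighbour in this order. SETD2, which writes trimethylated H3K36, thus stood 9 in an order of 10. The order depends on the length used: per kilobase of all annotated exons, KDM4A came before NSD2, and SETD2 was last.

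**Figure D1:**
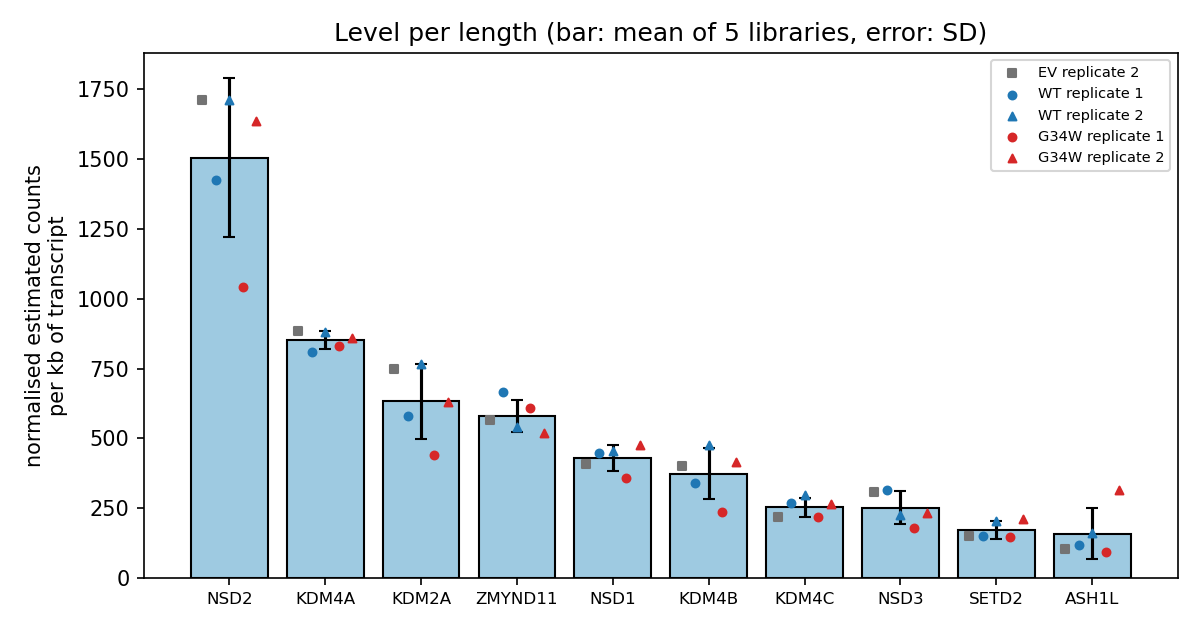
Level of the 10 members in normalised estimated counts per kilobase of the reference transcript. Bars are the mean of 5 libraries, error bars the SD, and points the single libraries; NSD2 has the highest bar (1506) and ASH1L the lowest (157.9), and the points of SETD2 and ASH1L overlap.

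Within the NSD family, NSD2 made up between 65.2% and 71.6% of the level per length in the 5 libraries, NSD1 between 16.8% and 22.7%, and NSD3 between 9.38% and 14.4%. The KDM4 shares cover the members KDM4A, KDM4B and KDM4C only, without KDM4D. KDM4A held between 53.1% and 64.6%, KDM4B between 18.5% and 28.9%, and KDM4C between 14.6% and 18.8%. KDM4B had its lowest share and KDM4A its highest in G34W replicate 1. The order of the family members was the same in each of the 5 libraries for both families. These shares are per length of the reference transcript and depend on the length used. Per kilobase of all annotated exons, the means were 559 for NSD2, 257 for NSD1 and 178 for NSD3. By that length KDM4A had 738, KDM4B 142 and KDM4C 106.

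To ask whether the mutant histone came with a different supply of these enzymes, G34W was compared with WT in a limma fit of 5 libraries on log2(value + 1), with Benjamini-Hochberg adjustment over all 16436 genes. None of the 10 members passed an adjusted p of 0.05, where 0% of all genes tested did so. At an unadjusted p under 0.05, 0 of the 10 members were found, against 2.84% of all genes. With a library left out, 1 member was: ASH1L without G34W replicate 1 (log2 difference 1.17, adjusted p = 1.0 in limma, with 1.57% of all genes found) and KDM4B without G34W replicate 2 (-0.76, adjusted p = 0.527 in limma, with 9.35% of all genes found). The members' log2 differences ran from -0.38 for NSD3 to 0.28 for ASH1L, with a median of -0.18, and 8 of 10 were below 0. Over all genes tested the median was -0.06, and 57.4% were below 0. The adjusted p was 1.0 for each member in limma. With a library left out, calls over all genes came to 117 (without G34W replicate 2), 11 (without WT replicate 1) and 1 (without WT replicate 2), none of them a member. For 7 of the 10 members the 95% interval of the difference lay within 2-fold in either direction. The exceptions were NSD3, whose interval reached 0.496-fold, KDM4B, which reached 0.466-fold, and ASH1L, which reached 2.65-fold. The share of all genes tested with an interval within 2-fold was not counted, so the count is not shown to be particular to the members. With 2 libraries against 2, an exact two-sided permutation test of a single gene cannot go below p = 0.333. The methods of the study call separate wells within an experiment replicates and have the cells collected in duplicate. Whether the libraries of a group came from separate transductions is not given in the sources used here, so p-values measure only the spread between these libraries.

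**Figure D2:**
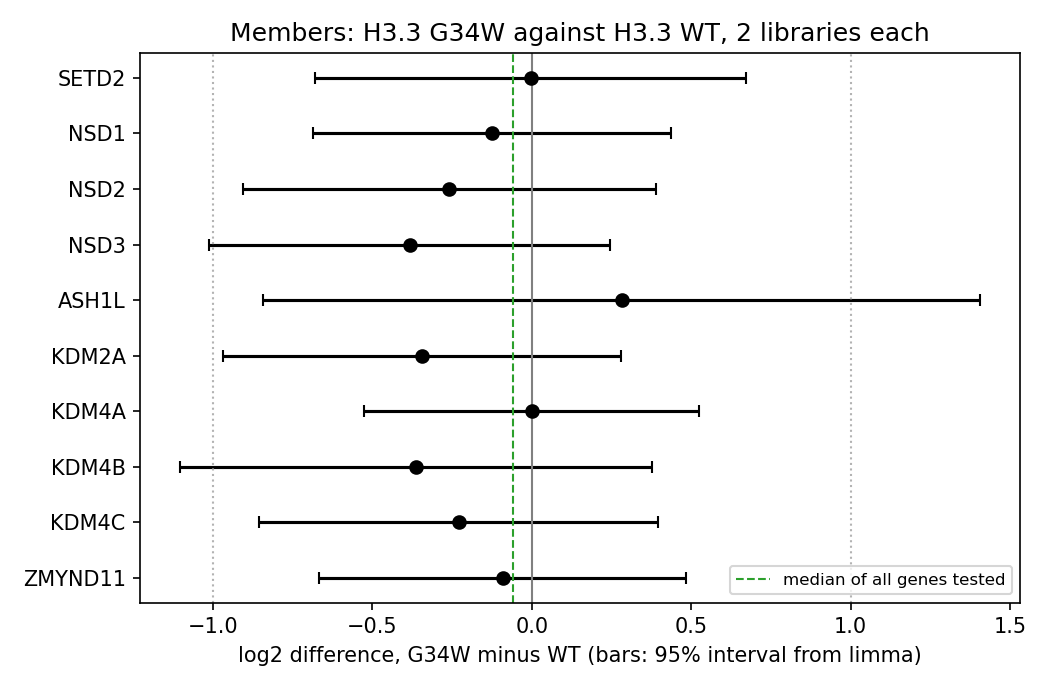
Log2 difference between G34W and WT for each member (point) with its 95% interval from limma; the dashed line is the median of all genes tested (-0.06) and the dotted lines mark 2-fold. All 10 intervals include 0, and that of ASH1L is the widest.

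SETD2 (ENSG00000181555; chromosome 3 of GRCh38.p14, 47016436 to 47164840) had G34W values of 1252 and 1799.6, WT values of 1295 and 1748, and an EV value of 1286 (normalised estimated counts). Replicate 2 of both groups was high, replicate 1 of both lay close to EV replicate 2, and the groups overlapped. The log2 difference was -0.00323 (SE 0.30), and the interval of the fold ran from 0.625 to 1.59.

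Of the NSD enzymes, NSD1 (ENSG00000165671; chromosome 5, 177131798 to 177300213), the gene mutated in Sotos syndrome, had G34W values of 4681 and 6206, WT values of 5820.4 and 5938, and an EV value of 5334. The G34W libraries lay on either side of both WT libraries (log2 difference -0.13, SE 0.25). NSD2 (ENSG00000109685; chromosome 4, 1871393 to 1982192), which is translocated in a subset of multiple myeloma, had G34W values of 7868 and 12379, WT values of 10776 and 12944.5, and an EV value of 12944. G34W replicate 1 was the lowest, and the remaining libraries lay between 10776 and 12944.5. The log2 difference of NSD2 was -0.26 (SE 0.29), and without G34W replicate 1 it was 0.068.

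NSD3 (ENSG00000147548; chromosome 8, 38269704 to 38382271), which also yields a short form without the catalytic domain, had G34W values of 1917 and 2516, WT values of 3395 and 2417, and an EV value of 3309. WT replicate 1 and EV replicate 2 were high, and WT replicate 2 lay between the G34W libraries. NSD3 had the lowest p of the members, with a log2 difference of -0.38 (SE 0.28, adjusted p = 1.0 from limma). Without WT replicate 1 it was -0.14, and without WT replicate 2 it was -0.63. The table does not separate its forms. NSD3 overlaps DDHD2, which had up to 3025, and reads from their shared stretch could be split between them. SETD2, ASH1L and KDM4A overlap the antisense genes KIF9-AS1, ASH1L-AS1 and KDM4A-AS1, and whether the quantification used strand is not given in the sources used here.

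ASH1L (ENSG00000116539; chromosome 1, 155335268 to 155563202), a dimethyltransferase of the trithorax group, varied most among the members. It had G34W values of 1096 and 3779, WT values of 1437 and 1951.5, and an EV value of 1239. G34W held both the lowest and the highest library. The highest exceeded the lowest 3.45-fold, a ratio that 18.7% of the genes tested surpassed, where the median gene had 1.72. Its log2 difference of 0.28 (SE 0.50) rested on G34W replicate 2: without that library it was -0.61, and without G34W replicate 1 it was 1.17.

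**Figure D3:**
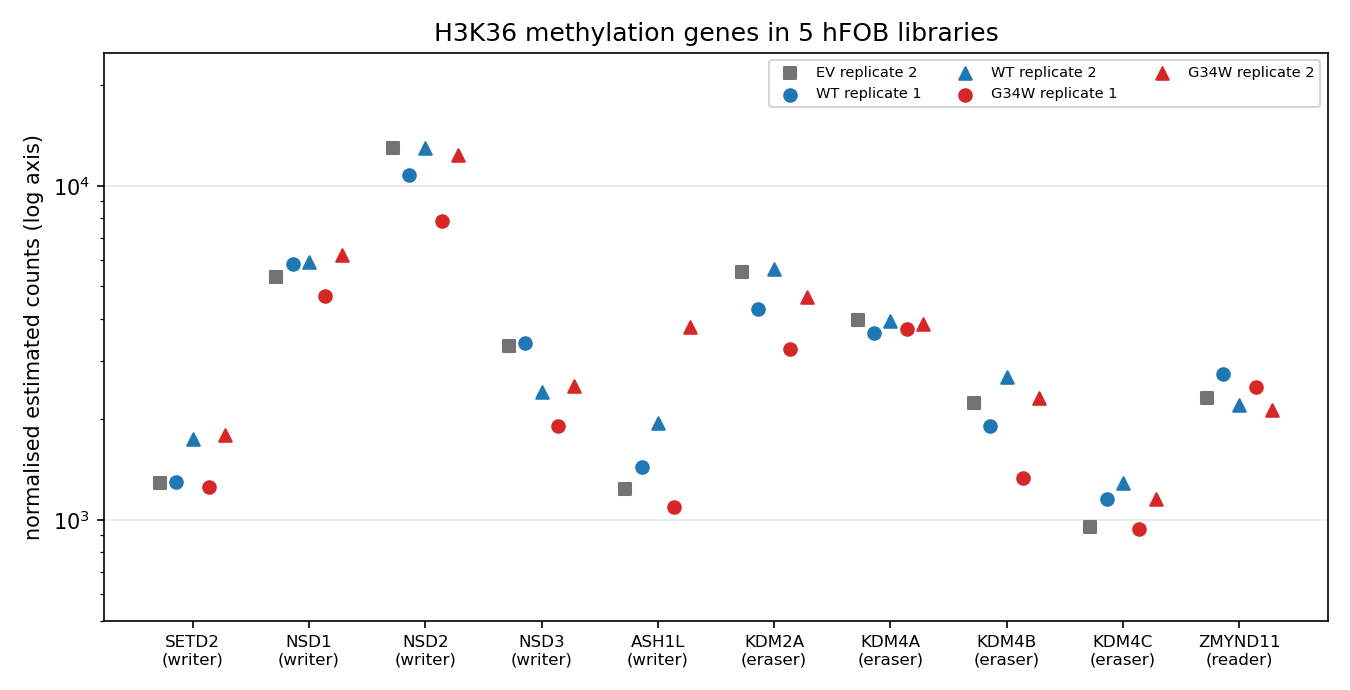
Normalised estimated counts of the 10 members in EV replicate 2 (square), WT (blue) and G34W (red) on a log axis, with circles for replicate 1 and triangles for replicate 2. KDM4A is nearly level over the 5 libraries, ASH1L is highest in G34W replicate 2 (3779), and G34W replicate 1 is the lowest point for 8 of the 10 genes.

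Among the erasers, KDM2A (ENSG00000173120; chromosome 11, 67119263 to 67258082), which binds unmethylated CpG islands through its CXXC domain, had G34W values of 3239 and 4648, WT values of 4288 and 5655, and an EV value of 5523. The G34W and WT libraries overlapped, and the log2 difference was -0.34 (SE 0.28), or -0.083 without G34W replicate 1. KDM4A (ENSG00000066135; chromosome 1, 43650149 to 43705518) had G34W values of 3721 and 3850.4, WT values of 3633 and 3944, and an EV value of 3975. It was the steadiest member: the highest library exceeded the lowest 1.09-fold, and 99.6% of the genes tested had a larger ratio. The interval of its fold between G34W and WT ran from 0.695 to 1.44.

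KDM4B (ENSG00000127663; chromosome 19, 4969113 to 5153598) had G34W values of 1332 and 2317, WT values of 1906 and 2678, and an EV value of 2246. G34W replicate 1 was again the lowest, and replicate 2 lay between the WT libraries. The log2 difference was -0.36 (SE 0.33), and 0.036 without G34W replicate 1. KDM4C (ENSG00000107077; chromosome 9, 6720863 to 7175648) had G34W values of 939.9 and 1155, WT values of 1157 and 1291, and an EV value of 953. It was the 1 member of 10 for which both G34W libraries lay below both WT libraries, an order found for 14.9% of all genes tested. The gap was small, from 1155 to 1157, and EV replicate 2 lay near G34W replicate 1. No member had both G34W libraries above both WT libraries, which 11.5% of all genes did. The log2 difference of KDM4C was -0.23 (SE 0.28), or -0.081 without G34W replicate 1.

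The reader ZMYND11 (ENSG00000015171; chromosome 10, 130088 to 254637) had G34W values of 2501 and 2133, WT values of 2731 and 2216, and an EV value of 2312. In both groups replicate 1 was the higher library, and the groups overlapped. The log2 difference was -0.09 (SE 0.25), and the interval of the fold ran from 0.630 to 1.40. For ZMYND11 and SETD2, the tested genes with the nearest profile were sought by the Euclidean distance of mean-centred log2 values over the 5 libraries. Nearest to ZMYND11 were APOOL (0.040), ZCCHC10 (0.079) and ORC2 (0.091), and 263 genes lay within 0.25. Nearest to SETD2 were ST6GALNAC4 (0.024), ANXA4 (0.066) and CDCP1 (0.072), and 399 genes lay within 0.25. Over 5 libraries such profiles are therefore shared by many genes.

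In the single libraries, the members were lowest in G34W replicate 1. It was the lowest of the 5 libraries for 8 of the 10 members, including all 5 writers, against 40.4% of all genes tested. The exceptions were KDM4A and ZMYND11. The median log2 ratio of the members to the WT mean was -0.49 in that library, where all genes tested had -0.20. In G34W replicate 2 it was 0.02, as it was for all genes (0.02), and in EV replicate 2 it was -0.06 against -0.04. After each library was rescaled to a median ratio of 1, the library was the lowest for 6 of the 10 members and 26.9% of all genes. The pluripotency markers were high in the same library (51675 against at most 391), and their part in the members' low values was not tested.

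**Figure D4:**
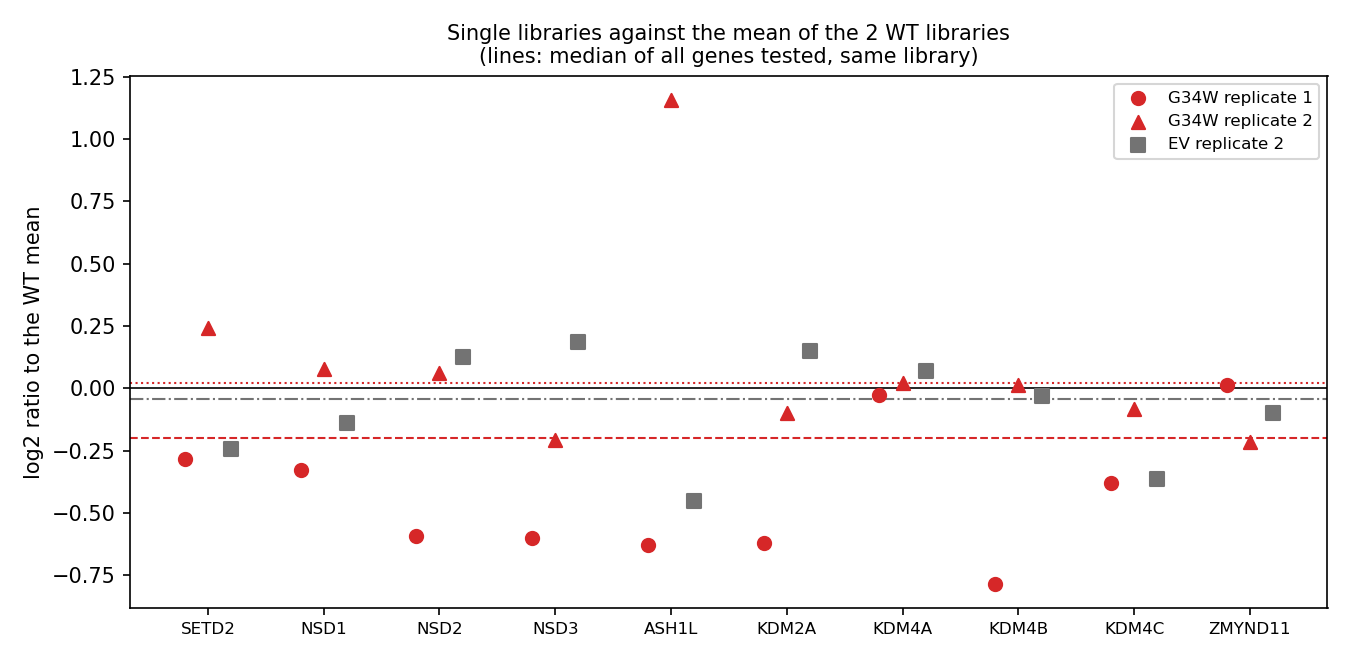
Log2 ratio of G34W replicate 1 (red circles), G34W replicate 2 (red triangles) and EV replicate 2 (grey squares) to the mean of the WT libraries, for each member; horizontal lines give the median of all genes tested in the same library. In G34W replicate 1, 9 of the 10 members lie below 0, and in G34W replicate 2 ASH1L lies far above the rest at 1.16.

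The most alike pair of members was NSD2 and KDM2A, a writer and an eraser, at a distance of 0.172; 159 of the genes tested (0.967%) lay nearer to NSD2 than KDM2A did. Both were low in G34W replicate 1 and higher in EV replicate 2 and WT replicate 2. For this pair, the 250 bases before the RefSeq start (GRCh38.p14, plus strand, 5′ to 3′) are shown, NSD2 at chr4:1871143-1871392 and KDM2A at chr11:67119013-67119262. Whether the promoters had a part in the likeness of the profiles was not tested. Capitals mark the GC box GGGCGG, on either strand and with overlaps counted; the ETS motif CCGGAAG and the E-box CACGTG were also searched.
NSD2 promoter: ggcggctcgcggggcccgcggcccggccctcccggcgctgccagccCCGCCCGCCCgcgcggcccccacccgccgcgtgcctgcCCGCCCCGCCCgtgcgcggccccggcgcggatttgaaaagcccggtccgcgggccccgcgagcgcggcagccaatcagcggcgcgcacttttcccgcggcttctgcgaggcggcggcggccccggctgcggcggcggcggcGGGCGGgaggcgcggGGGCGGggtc
KDM2A promoter: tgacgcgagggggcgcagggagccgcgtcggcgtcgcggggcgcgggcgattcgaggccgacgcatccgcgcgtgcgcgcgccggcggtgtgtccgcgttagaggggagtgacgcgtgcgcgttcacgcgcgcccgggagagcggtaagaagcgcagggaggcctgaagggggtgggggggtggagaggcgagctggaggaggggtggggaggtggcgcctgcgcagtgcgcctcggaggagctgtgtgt
The NSD2 window held 6 GC boxes and the KDM2A window 0, and neither held the ETS motif or the E-box. Both were rich in CG pairs, with 50 and 40, where the median of 35116 promoters was 11. A promoter was found for 9 of the 10 members; a GC box stood in 5 of the 9 and in 42.6% of all promoters, the E-box in 3 and in 6.34%, and the ETS motif in 1 and in 8.52%. A match describes these letters only and is not a binding site.

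The WT libraries were also set against EV replicate 2, which asks what the added histone does without the mutation. The lone EV library is assumed to vary like the other groups, and this comparison shares samples with the others. None of the 10 members passed the threshold in limma, where 0% of all genes did, and 0 had an unadjusted p under 0.05, against 1.06% of all genes. The log2 differences ran from -0.21 for NSD3 to 0.43 for ASH1L, with a median of 0.049 (0.017 over all genes tested). Between G34W and EV replicate 2, again 0 members passed in limma (0% of all genes), and 0 had an unadjusted p under 0.05 (1.97% of all genes). The extremes were NSD3 at -0.59 (SE 0.34) and ASH1L at 0.72 (SE 0.61), and the median was -0.036 (-0.035 over all genes tested). Without G34W replicate 1, ASH1L was at 1.61 (SE 0.38, adjusted p = 1.0 from limma) and was then the 1 member with an unadjusted p under 0.05, where 1.58% of all genes were. With the replicate number as a block, ASH1L was the 1 such member in both comparisons with EV, at 0.99 for WT (2.57% of all genes) and 1.27 for G34W (1.95%). With a library left out, up to 11 genes passed between WT and EV (without WT replicate 1) and up to 58 between G34W and EV (without G34W replicate 2), again no member. The interval lay within 2-fold for 7 of the 10 members between G34W and WT, for 7 between WT and EV, and for 4 between G34W and EV. The share over all genes tested was not counted in these comparisons either.

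The wider machinery was followed through 31 further genes, of which 29 passed the filter; PRDM9, a meiotic writer, and KDM4E did not, with at most 13.2 and 13.1. Between G34W and WT, 0 of the 29 passed the adjusted threshold (0% of all genes) and 0 had an unadjusted p under 0.05 in limma (2.84% of all genes). With the replicate block, 1 of the 29 had an unadjusted p under 0.05 in limma, as did 740 of all 16436 genes. The median log2 difference was -0.095, and 19 (65.5%) were below 0, where all genes tested had a median of -0.06 and 57.4% below 0. As for the members, G34W replicate 1 was often the lowest of the 5 libraries, for 16 of the 29 (55.2%, against 40.4% of all genes tested). In 3 genes the G34W pair lay wholly below the WT pair, and in 3 it lay wholly above (14.9% and 11.5% of all genes tested). Of the 10 other writers and partners of writers that were tested, 3 lay below: SMYD2, a lysine methyltransferase (-0.38, SE 0.24), SETD5 (-0.26, SE 0.24), and IWS1, an elongation factor that links SETD2 to RNA polymerase II (-0.26, SE 0.24). Above lay MORF4L1, the chromodomain protein MRG15 that binds methylated H3K36 and activates ASH1L (0.43, SE 0.27), and RBBP4, a histone-binding subunit of several complexes (0.20, SE 0.24).

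MORF4L1 had G34W values of 10857 and 7137, WT values of 6215 and 6836, and an EV value of 5809 (normalised estimated counts). SMYD2 had G34W values of 1926 and 2221, WT values of 2591 and 2787, and an EV value of 2330.3. For MORF4L1 the groups did not overlap, but replicate 1 of G34W carried most of the distance; for SMYD2, EV replicate 2 lay between the groups. Between G34W and EV replicate 2, 1 gene of the 29 had an unadjusted p under 0.05, against 1.97% of all genes tested. It was SETD5, with G34W values of 1826 and 2156, WT values of 2424 and 2327, and an EV value of 3364. The EV library lay above both groups: the log2 difference from it was -0.76 (SE 0.30, adjusted p = 1.0 from limma) for G34W and -0.50 (SE 0.30) for WT.

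None of the 4 tested genes listed as other erasers (KDM2B, KDM4D, KDM8 and RIOX1) stood apart between the groups. Their log2 differences ran from -0.35 for KDM4D to 0.12 for KDM8, with overlapping libraries for each. Among the 15 other readers, the extremes were DNMT3B at 2.23 (SE 1.22) and ZCWPW1, a meiotic reader, at -0.68 (SE 0.64), followed on the lower side by BRPF1, a subunit of a histone acetyltransferase complex, at -0.43 (SE 0.30). BRPF3 (0.22, SE 0.33) and PHF1, a partner of Polycomb repressive complex 2 (0.20, SE 0.43), came after DNMT3B on the higher side. Among those lowest in G34W replicate 1 were KDM4D, ZCWPW1 and BRPF1, at 131, 45.8 and 1432, where G34W replicate 2 had 262, 104 and 2206. For BRPF3, G34W replicate 1 was the highest, at 1036 against 766 in G34W replicate 2. PHF1 was the 1 reader with both G34W libraries above both WT libraries, at 199.6 and 198.3 against 183 and 164.

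DNMT3B, a de novo DNA methyltransferase whose PWWP domain binds methylated H3K36, had 13081 normalised estimated counts in G34W replicate 1 and 395 in G34W replicate 2. It had 515 and 458 in WT and 541 in EV replicate 2. The difference therefore stood in 1 library, the one in which POU5F1 had 19441; the part of the pluripotency markers in it was not tested. Without G34W replicate 2, the G34W group is this 1 library, which is then assumed to vary like the others. In that fit the log2 difference of DNMT3B was 4.75. Its spread comes from the other libraries and does not cover the distance between the G34W values of 13081 and 395. DNMT3A, the related methyltransferase, had G34W values of 698 and 861, WT values of 679.6 and 778, and an EV value of 742, with overlapping groups (0.09, SE 0.30).

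**Figure D5:**
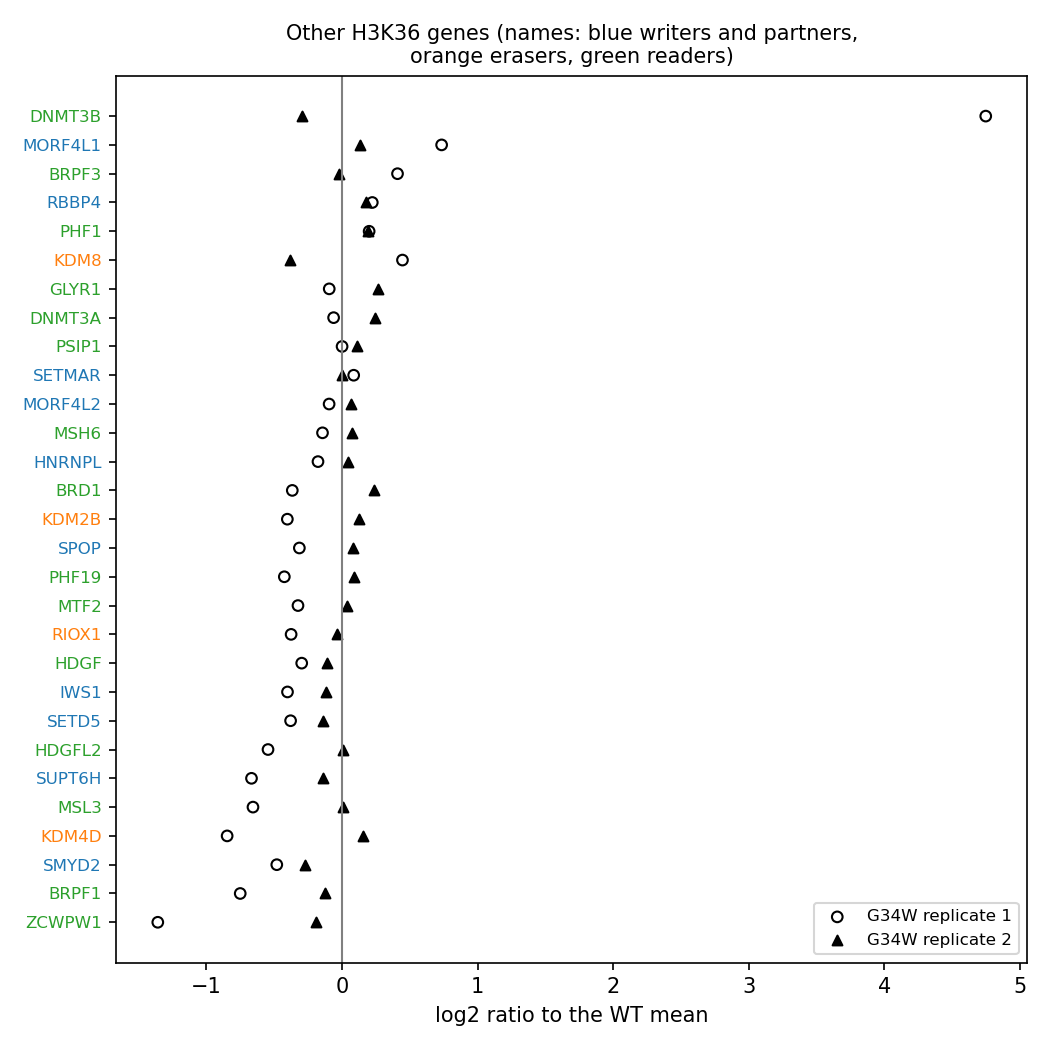
Log2 ratio of G34W replicate 1 (open circles) and G34W replicate 2 (filled triangles) to the mean of the WT libraries for 29 other H3K36 genes, ordered by their log2 difference in limma. DNMT3B is far to the right in replicate 1 (4.75) and not in replicate 2 (-0.30), and for most genes the circle lies left of the triangle.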

How the data were processed

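Bulk poly(A) RNA-seq was analysed. Per the labels and the study's methods, the authors ran kallisto on Ensembl v99 models (GRCh38), summed to genes with tximport and normalised with DESeq2. The deposited values are this normalised signal, neither whole reads nor per length. Of the values below 10, between 33.2% and 66.8% in the 5 libraries used were whole multiples (tolerance 0.02) of the most frequent low value. Reads were therefore not recovered, no count test was run and depth is unknown.

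Genes with at least 10 in at least 2 of 5 libraries were fitted with limma 3.58.1 (R 4.3.3) on log2(value + 1), with 3 groups, no covariates, a mean-variance trend and 2 residual degrees of freedom. The threshold was a Benjamini-Hochberg adjusted p of 0.05. On the log2(value + 1) scale the fold of a low gene is understated. On simulated data the fit recovered 56 of 100 changes of 2-fold and 98 of 100 of 4-fold, with 2 false calls. The simulation gave every gene the same dispersion and held no deviating library, so it does not give the recovery in these libraries. Alternatives were no trend, no filter, a pseudocount of 0.1, median-ratio scaling, a replicate block, EV replicate 1 kept, and each library left out. The labels give no batch. Lengths and the H3-3A codons came from GENCODE v44 lifted to GRCh37 (MANE Select transcripts), positions and promoters from RefSeq (GRCh38.p14).

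The members and gene lists were chosen with earlier results of these data known. The rule named the members, the markers, H3-3A, the 3 largest differences each way and any call among the other H3K36 genes, and the 3 nearest profiles of SETD2 and ZMYND11. Further genes were named, and the NSD2 and KDM2A pair was picked, after their values were seen.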

Additional observations from a re-analysis of the deposited data

Results flagged for a closer look

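In EV replicate 1, which the comparisons above did not use, 2 members were far above every other library. KDM2A had 105416 normalised estimated counts there against at most 5655 elsewhere, and ZMYND11 had 54229 against at most 2731. Such a rise was not limited to members: H3-3B had 111700 there against at most 26980 elsewhere, while H3-3A was listed at 0. The share of all genes that rose in this way was not counted. Of the other 8 members, NSD2 and KDM4B had 112 and 93.1 in that library, and 6 were listed at 0. The sum of its values was 157595150, and the cause of the difference between members was not tested. No group had the 4 libraries that a check for a single deviating library needs.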

How the results depend on the processing

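The 10 members stayed short of the threshold in all 3 comparisons under each of the 11 alternatives that gave the comparison, and the lowest adjusted p of a member between G34W and WT in limma was 0.527 (KDM4B, without G34W replicate 2). Of 110 log2 differences, 99 kept their direction and 11 changed sign; the cause was not tested. With median-ratio scaling SETD2 was 0.056. The other sign changes came with single libraries left out, where SETD2 ranged from -0.26 to 0.26, NSD1 from -0.33 to 0.078, NSD2 from -0.59 to 0.068, ASH1L from -0.61 to 1.17, KDM4A from -0.059 to 0.059, KDM4B from -0.76 to 0.036 and ZMYND11 from -0.24 to 0.059. NSD3 (from -0.63 to -0.14), KDM2A (from -0.60 to -0.083) and KDM4C (from -0.38 to -0.081) were below 0 in every one of these fits. Over all genes, calls between G34W and WT ranged from 0 to 117 with a library left out: 117 without G34W replicate 2, 11 without WT replicate 1 and 1 without WT replicate 2. For WT against EV they ranged from 1 to 11 (11 without WT replicate 1), and for G34W against EV from 1 to 58 (58 without G34W replicate 2); with a pseudocount of 0.1 each of these gave 1. Among the other H3K36 genes the calls between G34W and WT ranged from 0 to 1. The fit without EV replicate 2 gave no comparison with EV, and a lone library left in a group was assumed to vary like the others. Across genes, the deviations of equally numbered G34W and WT libraries correlated at r = 0.067 (genes are not independent replicates). Replicate 1 and replicate 2 differed in the same direction in G34W and WT for 9 of the 10 members (all but NSD3) and for 57% of all genes tested. The labels give the numbers no shared batch or culture, so they were not taken as pairs. Fitting that number as a replicate block gave 0 calls over all genes and over the members in each comparison in limma, with 740 genes at an unadjusted p under 0.05 between G34W and WT, against 466 without the block. At that p the block gave 1 member, ASH1L, against EV in WT (0.99, with 2.57% of all genes) and in G34W (1.27, with 1.95%), as did G34W against EV without G34W replicate 1 (1.61, with 1.58%). With the block the SE of ASH1L between G34W and WT was 0.32 and that of NSD2 0.19, against 0.50 and 0.29. Depth is unknown, so what it limits could not be computed.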
